A study of Drosophila melanogaster with 12 samples.

Results

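The RNA-seq arm of the study measured the transcriptome of fluorescent neurons sorted from the larval central nervous system of Drosophila melanogaster, and it comprised 3 of the 12 samples of the series. All 5135 genes of the authors' count table were described, of which 4939 were protein-coding. The cells carried the transgene P[nerfin-1.GFP-NLS.SV-40], labelled iA, a nerfin-1 reporter that directs GFP to the nucleus, and were otherwise labelled wild type. They were taken from wandering larvae of the third instar reared at 25°C, and GFP-positive cells were isolated by FACS. Sorts of different days were pooled into the 3 samples of 180 to 330 ng RNA each, so the spread between samples was a spread between pools and not between animals. The other 9 samples were ATAC-seq of sorted cells with the same reporter (3 samples) and DamID, a methylation-based binding assay, for Sd, for Nerfin-1 and for Dam alone (2 samples each). No second cell population had RNA values, so every comparison below was among genes or among the 3 libraries, called S1, S2 and S3 because their columns could not be tied to replicate numbers.

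Young neurons express Nerfin-1, a protein with zinc fingers that keeps them from returning to a progenitor state, and Sd (Scalloped) is a TEAD-family factor. Progenitors of the fly brain, the neuroblasts, divide asymmetrically and pass Prospero to the daughter cell whose progeny become neurons. Proteins of the ELAV family bind RNA in neurons and change splicing and polyadenylation. Postmitotic neurons of the larva include many that were born recently and have not yet formed mature synapses, since most adult neurons are generated at this stage.

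Levels were expressed as counts scaled to a listed total of 1000000 per library (CPM). A CPM value is a share of reads and grows with transcript length as well as with the number of transcripts. Transcript lengths were not used here, so groups of genes were placed by their percentile among all listed genes on the CPM scale. For many groups a percentile of CPM per kb of gene span is given beside it. That scale counts introns and therefore places genes with long introns too low. Library S1 had 43555895 listed counts, S2 had 44657928 and S3 had 57468071, and the lowest single count was 99. Pearson correlations of log2 CPM across the 5135 genes, which share these libraries and are not independent, were 0.995 for S1 and S2, 0.994 for S1 and S3, and 0.998 for S2 and S3. Of the identifiers, 125 matched no symbol and held 3.74% of the counts.

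The markers of the labelled cells were among the highest genes of the table. pros, which encodes Prospero (3R, 11328480 to 11407627 in Release 6 of the genome), ranked first of all genes with 10826, 12384 and 10038 CPM in S1, S2 and S3. fne (X, 12917477 to 12950417), a member of the ELAV family, had 2200, 2547 and 2478 CPM and ranked 30. nerfin-1 itself (3L, 909112 to 912319) had 2486, 1952 and 1773 CPM and ranked 40. All of them were high in every library, and nerfin-1 spread the most, with a coefficient of variation (CV, the SD divided by the mean) of 17.9%. elav (X, 509235 to 523226), the pan-neuronal founder of its family, had 1748, 1786 and 1685 CPM and ranked 55, with a CV of 2.93%. sd (X, 15804370 to 15827682), the partner factor profiled by DamID, stood lower at rank 602 with 377, 416 and 385 CPM. Each of the 4 label markers had an ATAC peak, an Sd peak and a Nerfin-1 peak within 1 kb of its gene in the authors' peak lists, as did 98.9%, 56.5% and 51.0% of the 4938 listed protein-coding genes on the main chromosome arms for the ATAC, Sd and Nerfin-1 lists.

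Genes that mark other cells were mostly not listed. As a scale for this and later lists, 4938 of all 13624 protein-coding genes that could be looked up were listed. That share ran from 33.5% on 2L to 41.4% on X, with 70.9% on chromosome 4. Of 88 entries on the lists for neuroblasts, glia, hemocytes, muscle, fat body, photoreceptors and testis, 8 were listed, and together they held 677, 769 and 735 CPM in the 3 libraries, in the order S1, S2 and S3 that is used throughout. The lists for muscle (13 entries), fat body (9) and testis (15) had no listed member. The neuroblast genes dpn, mira and wor and the glial gene repo were not in the table used here, whereas ase, a proneural factor of neuroblasts and their daughters, had 31.6, 58.2 and 52.6 CPM and sna had 63.6, 68.3 and 59.9 CPM. ase was lower in S1 than in S2 and S3, and sna was not. The glia list contributed nrv2, an ATPase subunit, at 122, 131 and 135 CPM, and gcm, which switches cells to glial fate, at 22.1, 41.9 and 41.2 CPM. Hemocyte genes were represented by Pxn at 112, 138 and 143 CPM, by Col4a1 at 99.3, 103 and 94.6 CPM, and by crq at 32.0, 36.1 and 36.2 CPM. In bulk RNA fewer cells of a type and less RNA per cell cannot be told apart.

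The counts were concentrated in few genes. The 10 highest held 5.42% of the counts, the 100 highest held 22.8%, and 481 genes held 50% of them. Mean CPM ran between 2.67 and 11083, with a median of 83.0, a 10th percentile of 21.5 and a 90th percentile of 452. The 10 highest genes named the cell type and its housekeeping side by side. After pros came the cytoplasmic actin Act5C (8193, 8476 and 9295 CPM), the long noncoding RNA CR42862 (4704, 4875 and 4909 CPM) and fax, an axonal protein that interacts with Abl (4749, 4856 and 4658 CPM). The others were the adaptor 14-3-3epsilon (4557, 4397 and 4597 CPM), the translational repressor brat, the alpha-tubulin alphaTub84B, 1 identifier with no symbol (FBgn0000556, 4119, 4192 and 4233 CPM), and the chaperones Hsp83 and Hsp23. Per kb of gene span the order changed, and the small compact genes Hsp23, RpL41 and Hsp26 stood first, followed by Act5C and alphaTub84B.

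**Figure D1:**
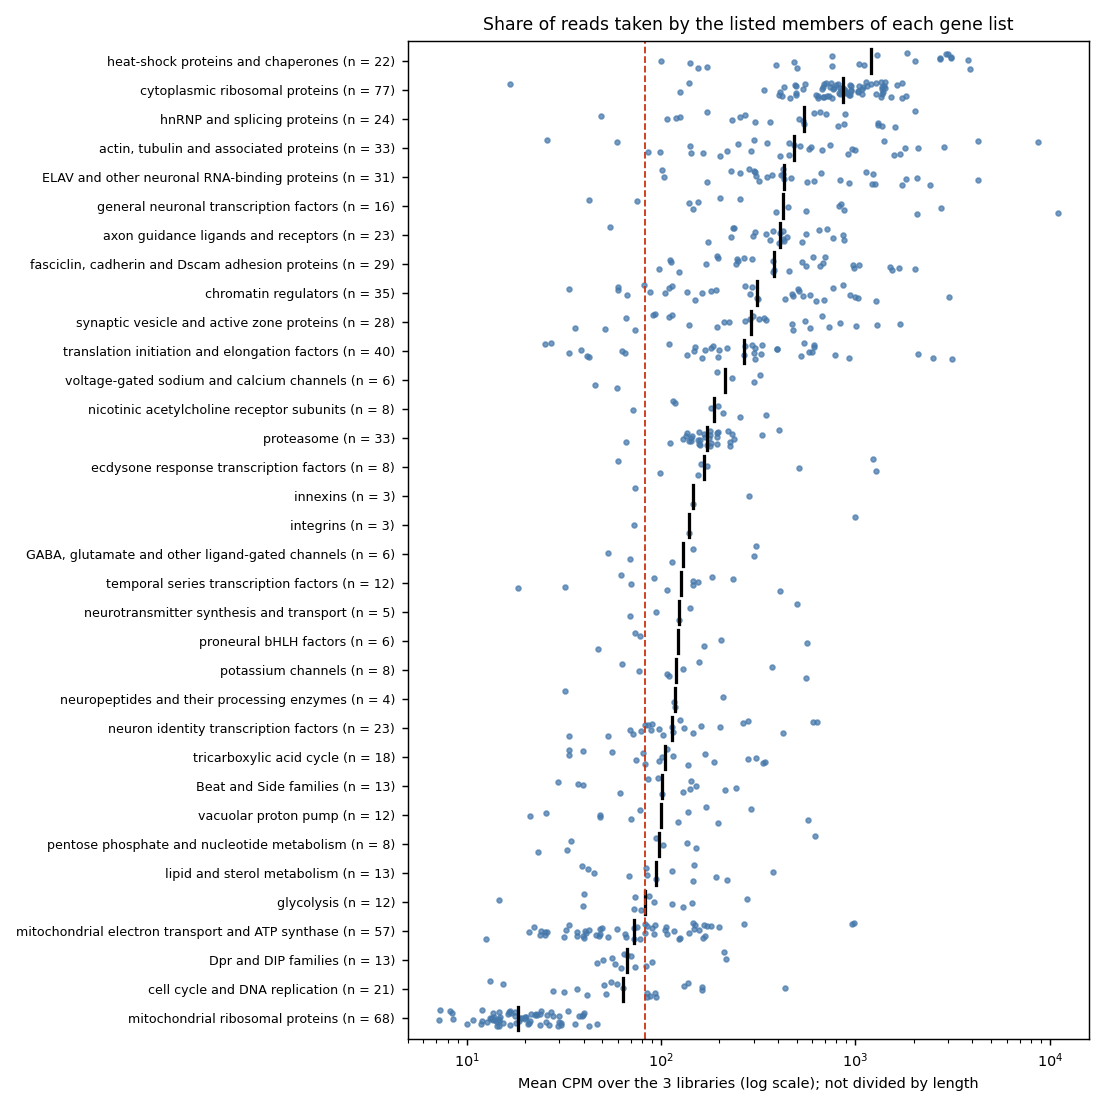
Mean CPM of each listed member (points, log axis) for the functional gene lists with at least 3 listed members, ordered by list median (black bar), with the number of listed members in brackets; the dashed line is the median of all 5135 genes, 83.0 CPM. Chaperones (median 1203 CPM) and cytoplasmic ribosomal proteins (859 CPM) stand at the top and mitochondrial ribosomal proteins (18.4 CPM) at the bottom.

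Transcription factors spread over the whole range, and the broadly neuronal ones stood above those that mark single classes of neuron. Of 127 factors on 5 lists, 65 were listed, with a median of 147 CPM at the 68.4th percentile, and they held 3.14% ± 0.21 of the counts (SD, n = 3). Per kb of gene span their median stood at the 13.2nd percentile. The 16 listed of 27 general neuronal factors had a median of 422 CPM at the 89.1st percentile, and at 42.9 per kb of gene span. Behind pros came jim, a zinc-finger factor, with 2872, 2886 and 2550 CPM. onecut, a homeodomain factor of neurons, had 880, 892 and 852 CPM. chinmo, a BTB zinc-finger factor that sets temporal identity, had 906, 885 and 728 CPM. scrt, a pan-neural zinc-finger factor of the Snail family, had 629, 556 and 496 CPM. In all 16, the log2 difference of S3 from the mean of the other libraries lay below that of the median gene. By construction it does so in 50% of all genes, but the share varied with gene span. Of the 16, 12 were in the longest quintile of gene span, where 847 of 988 protein-coding genes lay below the median gene in S3.

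Factors of the temporal series, which neuroblasts express one after another and hand on to their progeny, were lower. The 12 listed of 22 had a median of 127 CPM, at the 63.7th percentile by CPM and the 12.1st per kb of gene span. hth, a homeodomain factor, was the highest at 402, 437 and 394 CPM, followed by cas at 143, 305 and 258 CPM and dac at 178, 187 and 186 CPM. Members of the list differed in which library held more of them. D and hbn were highest in S1, with 170, 132 and 136 CPM for D and 168, 134 and 136 CPM for hbn. slp1 and slp2, a pair of neighbouring forkhead genes, were lowest there, with 14.4, 20.5 and 20.1 CPM for slp1 and 24.2, 36.3 and 36.2 CPM for slp2.

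Homeodomain and other factors that specify neuron identity had a median of 114 CPM over the 23 listed of 46, at the 61.1st percentile. Per kb of gene span their median stood at the 7.99th percentile. pdm3, a POU factor, had 636, 643 and 624 CPM. ct, the homeodomain factor Cut, had 799, 552 and 473 CPM, and the Pax6 homologue toy had 457, 416 and 399 CPM. Vsx1, a homeodomain factor of the visual system, had 156, 88.6 and 103 CPM. pdm3 was nearly level across the libraries, whereas ct and Vsx1 were highest in S1. Of the Hox genes searched, Antp, Ubx, abd-A, Abd-B, Scr, Dfd and lab, none was in the table used here.

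Nuclear factors of the ecdysone response, the hormone pathway that times larval and pupal steps, were led by Eip75B with 1420, 1274 and 1130 CPM and by crol with 1250, 1263 and 1172 CPM. Eip93F, a factor of late larval and pupal stages, had 633, 504 and 402 CPM. The receptor subunits themselves were lower, with 165, 161 and 141 CPM for EcR and 98.2, 97.8 and 102 CPM for usp. In all, 8 of 16 members of this list were listed, with a median of 166 CPM. Among proneural and related factors, 6 of 16 were listed. emc, a helix-loop-helix protein without a basic region that holds the proneural factors inactive, was the highest of them at 599, 549 and 546 CPM.

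Chromatin regulators were nearly complete, and about as even between libraries as genes of like level. Of 38 searched, 35 were listed, with a median of 311 CPM at the 85.1st percentile, and at the 76.0th per kb of gene span. Their median CV was 4.08%, against 5.93% over all genes. In the 9th decile of genes by CPM, where their median level lies, it was 4.11%. kis, a chromodomain remodeller, had 3088, 3261 and 2763 CPM. osa, a subunit of the Brahma complex, had 1301, 1322 and 1207 CPM, and Mi-2, the remodeller of the NuRD complex, had 1015, 1040 and 1033 CPM. mor, another Brahma subunit, had 687, 688 and 688 CPM, with a CV of 0.066% where counting alone would give 0.547%.

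Adhesion and guidance genes held 3.13% ± 0.22 of the counts (SD, n = 3). Of 132 entries, 81 were listed, with a median of 244 CPM at the 80.5th percentile, but at the 8.63rd per kb of gene span. Fasciclins, cadherins, Dscams and related adhesion molecules (29 of 43 listed) had a median of 382 CPM. All 29 stood in the upper part of the CPM ranking, above the median gene. Per kb of gene span their median stood at the 25.9th percentile. CadN, the N-cadherin of axons, was the highest with 2241, 2054 and 1764 CPM. stan, the atypical cadherin Flamingo, had 1942, 1676 and 1407 CPM. Nrt (Neurotactin) was level across libraries at 1515, 1560 and 1573 CPM. CadN and stan were highest in S1 and lowest in S3.

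Cell-surface molecules of the Dscam family, which let neurites recognise each other, did not behave alike. Dscam1 had 990, 1068 and 908 CPM, whereas Dscam2 had 2017, 1343 and 1187 CPM and Dscam3 had 744, 480 and 451 CPM. Dscam2 and Dscam3 were each more than 1.5-fold higher in S1 than the mean of the other libraries, a size that 34 of 5135 genes (0.662%) reached. Guidance ligands and receptors were represented by 23 of 27 genes with a median of 408 CPM. They stood at the 88.9th percentile by CPM and the 25.3rd per kb of gene span. The ligand sli had 886, 912 and 822 CPM, the semaphorin Sema1a had 837, 780 and 692 CPM, and its receptor PlexA had 904, 882 and 792 CPM. All of them were lowest in S3, by small amounts.

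Interaction partners that sort synaptic pairs stood lower than the fasciclin, cadherin, Dscam and guidance lists. Their listed shares were 40.6% for Dpr and DIP and 59.1% for Beat and Side. Among all protein-coding genes the share was 33.5% on 2L and 41.4% on X. Of 32 Dpr and DIP immunoglobulin proteins 13 were listed, with a median of 67.1 CPM, at the 43.1st percentile. dpr12 (222, 210 and 218 CPM) and dpr7 (212, 201 and 218 CPM) were the highest, and DIP-epsilon was the lowest with 58.4, 42.7 and 38.9 CPM. Of 22 Beat and Side proteins 13 were listed, with a median of 101 CPM. side-V had 263, 197 and 180 CPM and side-VII had 224, 244 and 259 CPM, so these members of one family were ordered in opposite ways across the libraries. Per kb of gene span the Dpr and DIP median stood at the 2.92nd percentile and the Beat and Side median at the 1.41st.

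Ion channels and receptors were the class with the smallest listed share apart from the markers of other cells. Of 119 entries 32 were listed, and they held 0.583% ± 0.014 of the counts (SD, n = 3). Their median stood at the 68.2nd percentile by CPM and the 10.3rd per kb of gene span. TRP, Piezo and ppk channels made up 43 of these entries, with 1 listed. With newer identifiers left out, 42.9% of sodium and calcium channel genes, 38.1% of potassium channels and 37.5% of innexins were listed. For GABA, glutamate and other ligand-gated receptors it was 28.6%. Nicotinic receptor subunits had the largest listed share, with 8 of 10 listed and a median of 188 CPM. These subunits stood at the 75.0th percentile by CPM and the 10.7th per kb of gene span. nAChRalpha6 was the highest at 350, 356 and 330 CPM and nAChRbeta1 was the lowest at 73.6, 72.0 and 69.7 CPM. Of 21 potassium channel genes 8 were listed. Sh, the voltage-gated Shaker channel, had 650, 549 and 468 CPM and Task6, a leak channel, had 378, 367 and 373 CPM. Sh was lowest in S3 while Task6 was level.

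Among sodium and calcium channel genes, 6 of 16 were listed. cac, the calcium channel of synapses, had 222, 254 and 219 CPM, and its auxiliary subunit stj had 357, 315 and 303 CPM. na, the sodium leak channel, had 306, 302 and 294 CPM. The sodium channel gene para carries a newer identifier than the table, so its level was not looked up. Of the GABA, glutamate and other ligand-gated receptors, 6 of 21 were listed, with the glutamate-gated chloride channel GluClalpha at 296, 304 and 301 CPM and the kainate receptor KaiR1D at 330, 290 and 303 CPM. Of 43 TRP, Piezo and ppk channels, which serve sensory cells, only Piezo was listed, at 119, 133 and 123 CPM.

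Genes of the presynaptic machinery were listed more completely than genes for any transmitter. Of 34 vesicle and active zone genes 28 were listed, with a median of 291 CPM at the 83.8th percentile, and at the 58.8th per kb of gene span. unc-13, a vesicle priming factor, had 1764, 1777 and 1564 CPM. brp, the scaffold of the active zone, had 1504, 1273 and 1110 CPM. cpx (complexin) had 1022, 1018 and 977 CPM, and the calcium sensor Syt1 had 597, 590 and 569 CPM. Of 19 genes for transmitter synthesis and transport 5 were listed. VGlut, the glutamate transporter of vesicles, had 543, 479 and 481 CPM, against 138, 131 and 153 CPM for VGAT and 136, 114 and 120 CPM for ChAT.

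VGlut, VGAT, Gad1, ChAT and ChT marked 3 fast transmitters: glutamate, GABA and acetylcholine. Gad1, which makes GABA, had 96.0, 92.9 and 94.9 CPM, and ChT, the choline transporter, had 65.2, 69.6 and 73.9 CPM. The monoamine genes ple, Ddc, Trhn, Tdc2, Vmat, DAT and SerT were not in the table used here. Of 37 genes for neuropeptides and their processing 4 were listed. These were the processing enzymes svr (203, 206 and 215 CPM), amon (123, 111 and 121 CPM) and Pal2 (109, 115 and 128 CPM), and the peptide precursor Nplp1 (28.3, 31.6 and 36.1 CPM).

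Metabolic genes sat near the middle of the table on the CPM scale. Of 192 entries 120 were listed, with a median of 84.2 CPM at the 50.6th percentile, or the 71.0th per kb of gene span, and they held 1.49% ± 0.10 of the counts (SD, n = 3). Glycolysis (12 of 15 listed) had a median of 82.9 CPM, led by the enolase gene Eno at 276, 269 and 290 CPM. The tricarboxylic acid cycle (18 of 19) had a median of 105 CPM, led by the aconitase mAcon1 at 336, 341 and 352 CPM and the citrate synthase kdn at 335, 319 and 346 CPM. Ldh, which makes lactate, and Pfk, which commits sugar to glycolysis, were not in the table used here.

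Respiratory chain and ATP synthase genes numbered 57 listed of 83, with a median of 72.8 CPM at the 45.9th percentile by CPM and the 78.1st per kb of gene span. ATPsynbeta had 924, 967 and 1077 CPM and ATPsynC had 879, 963 and 1057 CPM. Both ATP synthase genes were highest in S3, and in 56 of the 57 genes the difference of S3 from the other libraries lay above that of the median gene. Of the 57, 36 were in the shortest quintile of gene span, where 103 of 989 protein-coding genes lay below the median gene in S3. Lipid and sterol genes (13 of 21) had the smallest median CV of the lists, 3.04%, and were led by the phosphatidate phosphatase Lpin at 367, 377 and 390 CPM. awd, a nucleoside diphosphate kinase, led pentose phosphate and nucleotide metabolism (8 of 21) at 564, 588 and 712 CPM. The vacuolar proton pump (12 of 33) was led by Vha16-1 at 556, 558 and 597 CPM.

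RNA-binding proteins ranked high on both scales. Of 116 entries 95 were listed, with a median of 362 CPM, at the 87.3rd percentile by CPM and the 88.1st per kb of gene span. Their summed share was 6.01% ± 0.041 of the counts (SD, n = 3), with 60226, 60471 and 59677 CPM in S1, S2 and S3. ELAV and other neuronal RNA-binding proteins (31 of 39 listed) were led by brat with 4552, 4422 and 3817 CPM, followed by fne. shep, a relative of the ELAV genes in its RNA-recognition motifs, had 2101, 2163 and 1988 CPM. Rbp6, a Musashi homologue, had 2254, 1714 and 1494 CPM. Rbp6 was highest in S1, and in all 31 genes the difference of S3 from the other libraries lay below that of the median gene. Of the 31, 20 were in the longest quintile of gene span, where 847 of 988 protein-coding genes lay below the median gene in S3.

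Splicing and hnRNP proteins (24 of 26 listed) had a median of 541 CPM, at the 92.2nd percentile by CPM and the 92.5th per kb of gene span. The poly(A)-binding protein pAbp had 1987, 2091 and 2007 CPM, and the hnRNP proteins Hrb27C and sqd had 1593, 1692 and 1539 CPM and 1325, 1316 and 1275 CPM. Translation factors (40 of 51) had a median of 269 CPM. The elongation factors eEF1alpha2 (2920, 3081 and 3421 CPM) and eEF2 (2352, 2480 and 2664 CPM) were the highest of the 40 members found. Another 2 entries of that list carried newer identifiers than the table, so their levels were not looked up and could be higher.

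Both classes of ribosomal protein were nearly complete, at opposite ends of the CPM scale. Cytoplasmic ribosomal proteins (77 of 86 listed) had a median of 859 CPM at the 96.3rd percentile, 69 of them stood in the top decile, and together they held 6.90% ± 0.51 of the counts (SD, n = 3). RpS5a was the highest with 1743, 1768 and 1939 CPM, and its paralogue RpS5b was the lowest with 12.4, 17.3 and 20.5 CPM, although reads that both copies share could be assigned to either. Mitochondrial ribosomal proteins (68 of 73) had a median of 18.4 CPM at the 7.21st percentile, and 44 stood in the lowest decile. Per kb of gene span they moved up to the 47.3rd percentile. mRpS30 was the highest with 44.2, 45.6 and 50.7 CPM.

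The cytoskeleton held 3.45% ± 0.038 of the counts over 33 listed of 45 genes (SD, n = 3). Act5C and alphaTub84B (4022, 4104 and 4631 CPM) came first. Ank2, a neuronal ankyrin, had 3126, 2929 and 2548 CPM, and its spectrin partners beta-Spec and alpha-Spec had 2177, 2109 and 2010 CPM and 1882, 1809 and 1686 CPM. Proteasome subunits (33 of 48 listed) lay in a narrow band with a median of 173 CPM, led by Rpn2 at 388, 407 and 421 CPM.

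The spread between libraries was small for most genes, and larger than counting error for most. The median CV was 5.93%, against 1.57% from counting alone, and the 10th and 90th percentiles of the CV were 2.15% and 12.3%. A chi-square test of homogeneity with Benjamini-Hochberg adjustment found 4371 of 5135 genes (85.1%) beyond counting error at an adjusted p under 0.05. It compares these libraries with counting error only. With library sizes rescaled by TMM these genes numbered 3506 and the median CV was 4.51%. With DESeq2 size factors they numbered 3456 and the median CV was 4.47%. The biological coefficient of variation that edgeR estimated for the median gene was 6.38%. In 94 genes (1.83%) the highest library exceeded the lowest by more than 1.5-fold. Without S1 10 genes did, and without S3 the genes beyond counting error numbered 2564 and the median CV was 3.74%. The CV fell with level to 4.11% in the 9th decile of genes, from a median of 9.96% in the lowest decile, and was 5.65% in the highest decile.

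**Figure D2:**
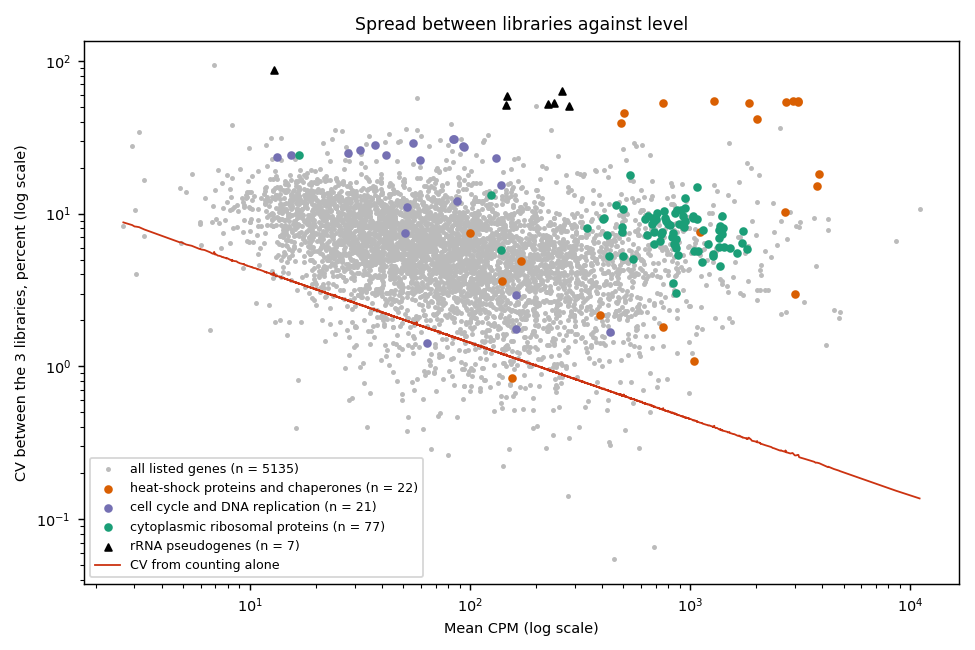
Coefficient of variation between the 3 libraries against mean CPM for each gene, both on log axes, with the CV that counting alone would give as a line. Most genes lie above the line; 10 of the heat-shock genes (orange, CV up to 54.9%), the rRNA pseudogenes (triangles, 50.9% to 86.5%) and cell-cycle genes (purple, median 23.3%) stand above genes of like level.

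On the CPM scale, which rests on listed totals, the most even genes differed by less than counting error. TMM factors for these totals were 0.964 in S1, 0.994 in S2 and 1.04 in S3. Genes with equal CPM are therefore not equal after that scaling, and the genes named here are the most even on the CPM scale only. jumu, a forkhead factor, had 452 CPM in each library, with a CV of 0.055% where counting gives 0.675%. mor came next. Others among the 10 smallest CVs at a mean of at least 50 CPM were the RNA helicase Prp5 (142, 143 and 142 CPM), the cytokine receptor dome (151, 150.5 and 151 CPM), Rab14 and alt (433, 436 and 435 CPM). In all, 246 of 5135 genes (4.79%) had a CV below their counting CV.

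Heat-shock genes had the highest median of the functional lists, and some of them were among the least even genes of the table. Of 26 searched 22 were listed, with a median of 1203 CPM at the 98.0th percentile and a median CV of 16.6%. In 10 of the 22 the highest library exceeded the lowest by more than 1.5-fold. They were the 6 Hsp70 genes, Hsp68, Hsp26, DnaJ-1 and Hsp67Bc. The 6 near-identical Hsp70 copies, among which reads can be split, summed to 21928, 12973 and 6904 CPM, a 3.18-fold range. Hsp68, a single-copy relative, had 2815, 1882 and 866 CPM, and Hsp26, a small heat-shock protein, had 2910, 1948 and 1217 CPM.

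DnaJ-1, the Hsp40 co-chaperone, had 701, 551 and 254 CPM, and the small heat-shock protein Hsp67Bc had 699, 430 and 329 CPM. S1 was the highest and S3 the lowest library for each of these genes. Hsp83, the fly Hsp90, followed the same order more weakly with 4469, 4070 and 3099 CPM, and so did Hsp23 with 4414, 3621 and 3306 CPM. These, like Hsp27 with 3044, 2591 and 2537 CPM, are heat-inducible too, but their highest library exceeded the lowest by 1.44-fold for Hsp83, by 1.33-fold for Hsp23 and by less than either for Hsp27. The summed level of 7 constitutive chaperones did not share this order. Hsc70-3, Hsc70-4, Hsc70-5, Gp93, Calr, Cnx99A and Hsp60A summed to 6476, 6639 and 6743 CPM, a 1.04-fold range, and Hsc70-4 alone had 2913, 3093 and 3005 CPM. Hsf, the factor that induces the heat-shock genes, had a CV of 0.836%.

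**Figure D3:**
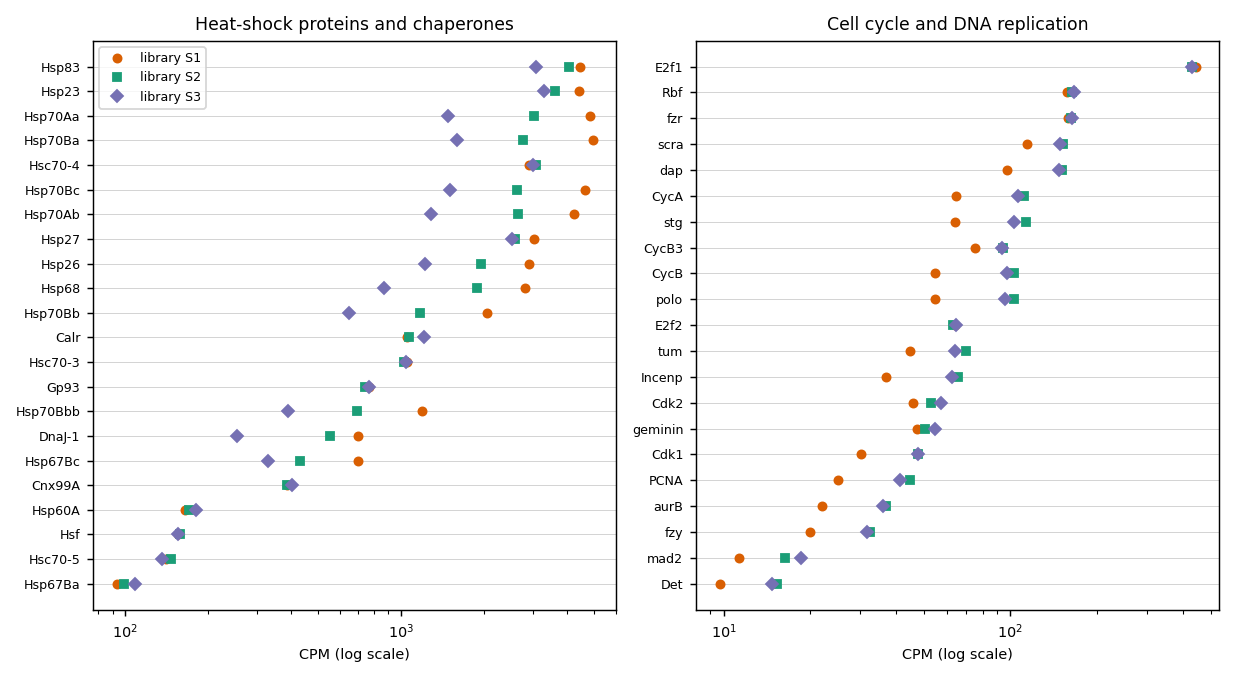
CPM in each library (log axes) for the 22 listed heat-shock and chaperone genes (left) and the 21 listed cell-cycle genes (right), ordered by mean CPM; points are single libraries with no error bars. The Hsp70 genes, Hsp68, Hsp26, DnaJ-1 and Hsp67Bc separate in the order S1, S2, S3, whereas the constitutive Hsc70 genes overlap; in 13 of the 21 cell-cycle genes S1 lies more than 1.5-fold below the mean of the others.

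Cell-cycle genes were low and divided the libraries in another way. Of 40 searched 21 were listed, with a median of 64.0 CPM at the 41.7th percentile. In 13 of the 21, S1 was more than 1.5-fold below the mean of the other libraries, a size that 48 of 5135 genes (0.935%) reached. CycB, the mitotic cyclin B, had 54.8 CPM in S1, against 103 in S2 and 97.1 in S3. CycA had 64.7, 111 and 106 CPM, and polo, a mitotic kinase, had 54.4, 103 and 95.7 CPM. stg, the Cdc25 phosphatase that triggers mitosis, had 64.1, 113 and 103 CPM. S2 and S3 lay close together in each and S1 lay apart.

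Regulators of cell-cycle entry and exit that are also used outside division did not share this split. E2f1 had 443, 430 and 430 CPM, Rbf, the retinoblastoma homologue, had 157, 164 and 167 CPM, and fzr, which degrades cyclins in cells that leave the cycle, had 159, 163 and 165 CPM. dap, the inhibitor of Cyclin E complexes in cells about to stop dividing, did follow it with 97.0, 151 and 148 CPM. CycE, Mcm2, Mcm5 and Mcm7 of DNA replication were not in the table used here, whereas PCNA was listed at 25.1, 44.7 and 41.3 CPM.

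The 48 genes that were lower in S1 by more than 1.5-fold summed to 3371 CPM in S1, against 6576 in S2 and 5807 in S3. The largest part of that sum came from lncRNA:cherub, a noncoding RNA that neuroblasts segregate asymmetrically, with 1557 CPM in S1, against 3383 in S2 and 2768 in S3. The next genes were chosen after their values were seen. cas, the temporal factor named above, had the same 3-library pattern. spdo (Sanpodo), which regulates Notch between sister cells, had 30.5 CPM in S1, against 64.8 in S2 and 59.5 in S3. Galphai, a G protein of spindle orientation, had 34.1 CPM in S1, against 71.3 in S2 and 67.5 in S3.

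tap, a proneural-type factor, had 122, 195 and 180 CPM, and the innexin Inx3 had 47.4, 87.3 and 84.8 CPM. ase and gcm, from the neuroblast and glia lists, also belonged to these 48 genes. The neuroblast list, with 2 of 12 members listed, summed to 95.2, 126 and 113 CPM, and the glia list, with 2 of 14, summed to 144, 173 and 176 CPM. Both sums were lowest in S1, and the defining genes mira, dpn, wor and repo were not in the table used here. The part of other cells in the lower S1 values was not tested.

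The 34 genes that were higher in S1 by more than 1.5-fold included the 10 heat-shock genes and 7 rRNA pseudogenes. With TMM library sizes 40 genes were higher in S1 and 32 lower, and DESeq2 size factors gave the same counts. Which side held more genes thus depended on the scaling. The rRNA pseudogenes, which are near-copies of ribosomal RNA and can hold reads from it, summed to 2145 CPM in S1, against 763 in S2 and 1055 in S3. Protein-coding members outside the heat-shock list included ct, Dscam2, Dscam3, Vsx1, GEFmeso (154, 103 and 89.6 CPM) and CG34377 (753, 473 and 487 CPM). S2 was higher in 5 genes (0.0974%) and lower in 9 (0.175%), and S3 was higher in 2 (0.0389%) and lower in 14 (0.273%). The 9 genes lower in S2 included all 7 rRNA pseudogenes, and the 14 lower in S3 included the same 10 heat-shock genes that were higher in S1. Between S2 and S3 alone, 10 genes differed by more than 1.5-fold, all of them higher in S2. Without S2 the counts for S3 were 49 higher and 34 lower, and without S3 the counts for S2 were 42 higher and 27 lower, which are the differences from S1.

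Whole lists also shifted by smaller amounts. Each library's log2 CPM was compared with the mean of the other 2, and list medians were taken relative to the median of all listed genes, which was -0.08 in S1, -0.01 in S2 and 0.10 in S3 before that centring. Chaperones stood at 0.42 in S1 and -0.47 in S3. Cell-cycle genes stood at -0.55 in S1, at 0.35 in S2 and at 0.17 in S3. Without S1 their S3 value was -0.11. Several lists of neuronal genes stood higher in S1 than in S3. Fasciclins, cadherins and Dscams stood at 0.19 in S1 and -0.21 in S3, synaptic genes at 0.13 and -0.13, and neuronal RNA-binding proteins at 0.11 and -0.20. Nicotinic subunits stood at 0.02 and -0.17, and neuropeptides with their processing enzymes at -0.02 and 0.04. Proneural factors stood at -0.30 in S1 and 0.11 in S3. Respiratory chain genes stood at -0.10 in S1 and 0.14 in S3, mitochondrial ribosomal proteins at -0.05 and 0.11, and glycolysis genes at -0.07 and 0.10. Cytoplasmic ribosomal proteins stood at -0.05 in S1 and 0.08 in S3, with 74 of 77 above the median gene in their S3 difference. Of the 77, 48 were in the shortest quintile of gene span, where 103 of 989 protein-coding genes lay below the median gene in S3. Splicing and hnRNP proteins stayed within 0.03 of 0 in S1, S2 and S3.

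**Figure D4:**
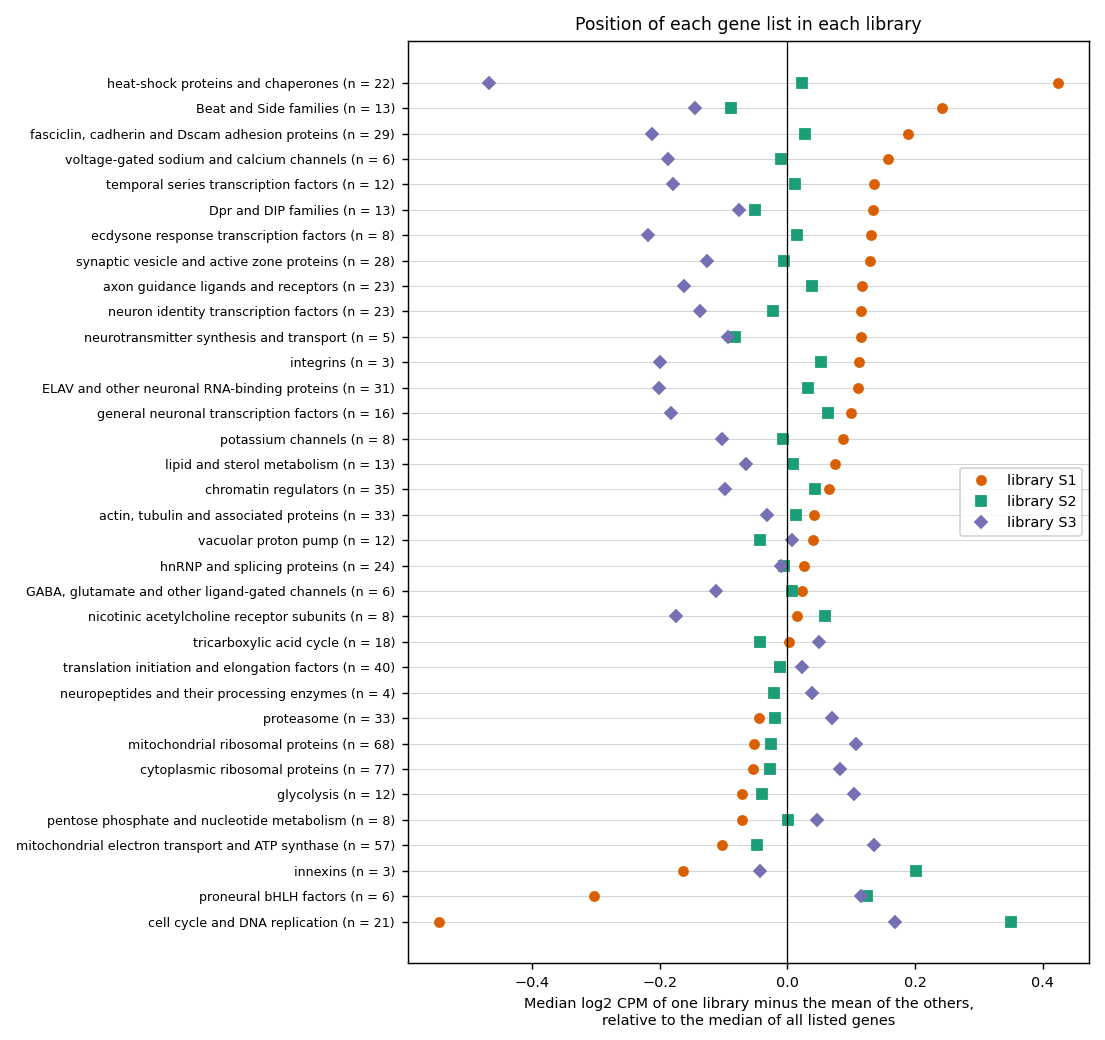
Median over listed members of log2 CPM in one library minus the mean of the other 2, relative to the same median over all listed genes; each row is a gene list with its number of listed members and each symbol a library. Chaperones (0.42 in S1, -0.47 in S3) and cell-cycle genes (-0.55 in S1) lie farthest from 0.

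Library differences varied with gene span. Over protein-coding genes split into quintiles by gene span (shortest 370 to 1474 bp, longest 9620 to 291517 bp), the relative median in S1 was -0.08, -0.03, 0.00, 0.04 and 0.10, short to long, and in S3 it was 0.10, 0.04, 0.00, -0.05 and -0.13. S2 stayed between -0.02 and 0.03. Among lists that stood higher in S3 than in S1, the shortest quintile held 63 of 68 mitochondrial and 48 of 77 cytoplasmic ribosomal proteins. It also held 36 of 57 respiratory chain genes and 18 of 33 proteasome subunits. Of other lists higher in S3, it held 8 of 40 translation factors and 2 of 18 tricarboxylic acid cycle genes. The same quintile held 0 of 12 glycolysis genes and 0 of 6 proneural factors. Among lists that stood higher in S1 than in S3, the longest quintile held 24 of 29 fasciclin, cadherin and Dscam genes and 20 of 23 guidance genes. It also held 11 of 13 Beat and Side genes, 20 of 31 neuronal RNA-binding proteins and 12 of 28 synaptic genes. Of other lists higher in S1, it held 12 of 35 chromatin regulators, 5 of 24 splicing and hnRNP proteins and 0 of 12 vacuolar proton pump genes. Of the 22 chaperone genes, 3 were in the shortest quintile and none (0) in the longest, and of the 21 cell-cycle genes 5 and 2 were. The part of gene span in the list shifts was not tested.

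**Figure D5:**
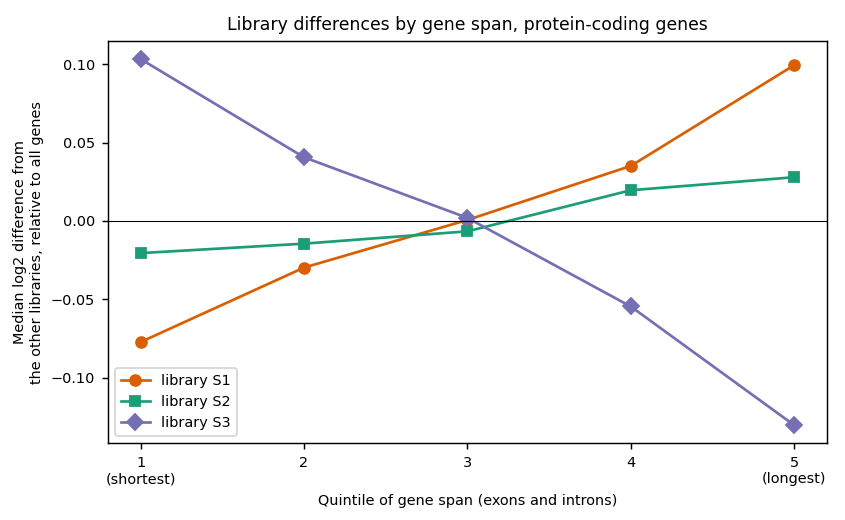
Median log2 difference of each library from the other 2, relative to all listed genes, for protein-coding genes in quintiles of gene span, short to long; lines join the quintiles of one library and have no error bars. S1 rises with span (-0.08 to 0.10), S3 falls (0.10 to -0.13) and S2 stays near 0.

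The authors' peak lists gave a readout from other assays. The rule for keeping genes in the RNA table is not known here, so a part of peaks in it could not be checked. The ATAC peaks came from cells sorted with the same reporter, whereas the DamID transgenes were driven by GMR31H08-Gal4, so the DamID and RNA cells were not chosen in the same way. Peak lists are 1 per assay, with no value per replicate, and a gene was counted when a peak overlapped it or lay within 1 kb. All 988 genes in the highest quintile of CPM (100.0%) had an ATAC peak, against 74.2% of the 8686 protein-coding genes not listed. That gap of 25.8 percentage points was 51.6 when the peak had to overlap the gene itself and 2.19 when it could lie within 5 kb. Listed genes in the lowest quintile of CPM had an ATAC peak within 1 kb in 97.0%. An Sd peak was present at 74.8% of the highest quintile, against 23.6% of genes not listed, and a Nerfin-1 peak at 70.3%, against 22.4%. Within the listed genes the share with an Sd peak was 44.5%, 48.1%, 54.3%, 60.9% and 74.8% in quintiles of rising CPM. In quintiles of rising CPM per kb of gene span it was 66.1%, 51.9%, 50.9%, 54.4% and 59.4%, so the rise with level did not hold over that whole scale. The lowest of these quintiles had a median span of 13743 bp, against 2413.5 to 2775 bp in the others. Level and span were thus not separated on that scale either. Genes in the highest quintile were also longer, with a median span of 8528.5 bp, against 1774 bp for genes not listed, and longer genes can meet more peaks.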

How the data were processed

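RNA was sequenced from 3 pooled samples of sorted neurons. Per the labels' protocols, RNA was extracted with Trizol and libraries were made with TruSeq RNA. The authors deposited raw read counts per gene for genes they kept as expressed; no source used here gives the rule for keeping them. The submitters' processing notes name Bowtie2, Subread with featureCounts, edgeR, MACS2 and bedtools, and the build dm6, with no roles. Peak lists were used as deposited, as positions only. All columns carried a group (0 unmapped).

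Counts were divided by the listed total of each library and scaled to 1000000 (CPM). These totals leave out unlisted genes and are not the full depth. No coding or transcript lengths were at hand, so the intended ranks per coding kb were replaced by ranks of CPM, with CPM per kb of gene span (RefSeq, Release 6) beside them. Spread was the CV over the libraries. Homogeneity was tested per gene by chi-square with Benjamini-Hochberg adjustment over all 5135 genes at 0.05, and the procedure was checked on simulated data. Dispersion came from edgeR 4.0.16 with an intercept only; TMM and DESeq2 1.42.0 size factors were alternatives (R 4.3.3, Python 3.11.15, scipy 1.17.1). Counting error as given here does not cover amplification duplicates.

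The 43 gene lists hold 1224 entries, of which 726 distinct genes were listed, 44 entries carried newer identifiers and 2 matched no gene. Entries with newer identifiers could stand in the table under an older one. The highest member of a list is therefore the highest of those found. The members and lists were chosen with earlier results of these data known. The genes named were the label markers and sd, the 10 of highest CPM (the 15 of highest CPM per coding kb could not be ranked), the 3 highest of each list, its lowest and its most variable member, and the 10 of largest and smallest CV at a mean of 50 CPM or more; others were chosen after their values were seen. One item is not reported here.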

Additional observations from a re-analysis of the deposited data

How the results depend on the processing

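No paired analysis was possible because only 1 group had values per library and the columns carry no replicate numbers. Levels per coding length could not be run. Of 81 alternative values of the main results 62 stayed within 1.5 times (counts) or within the spread; the others follow. Genes higher in S3 by over 1.5-fold numbered 1 under TMM, under DESeq2 size factors and at a mean count of at least 500, against 2. Leaving out each library in turn gave 2564 to 4014 genes beyond counting error, a median CV of 3.74% to 7.10%, and 10 to 83 genes with a range above 1.5-fold. Over the same omissions genes higher in S2 numbered 10 to 42 and lower 0 to 27, and genes higher in S3 numbered 0 to 49 and lower 10 to 34. The difference in ATAC peaks between the highest quintile and genes not listed was 51.6 percentage points with no flank and 2.19 at 5 kb, against 25.8. For Sd it was 41.6 at 5 kb and 35.8 per kb of gene span, against 51.2, and for Nerfin-1 it was 38.6 and 32.6, against 47.9. Of 1020 alternative values for lists 952 stayed within the spread and 56 moved. The 12 that changed sign by more than the spread were medians of S2 when 1 other library was left out. Their ranges were -0.048 to 0.20 for general neuronal factors, -0.084 to 0.21 for ecdysone factors, -0.17 to 0.17 for fasciclins, cadherins and Dscams, -0.042 to 0.13 for guidance genes, -0.039 to 0.16 for integrins, -0.24 to 0.057 for Beat and Side, -0.12 to 0.027 for Dpr and DIP, -0.11 to 0.12 for sodium and calcium channels, -0.080 to 0.078 for synaptic genes, -0.036 to 0.031 for lipid genes, -0.067 to 0.16 for neuronal RNA-binding proteins and -0.30 to 0.34 for chaperones. Without S1 each S2 value is by definition the difference from S3 alone, and without S3 it is the difference from S1 alone. A cause beyond this change of reference was not tested. The full depth of the libraries is unknown here.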

Other observations

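Noncoding RNAs held 1 of the 10 highest levels, and 28 long noncoding RNAs were listed, with 1.05% ± 0.092 of the counts (SD, n = 3). After CR42862 and cherub came lncRNA:roX1, a noncoding RNA of the male X chromosome's dosage compensation complex, with 1461, 1444 and 1227 CPM in S1, S2 and S3. lncRNA:roX2, its partner, had 97.9, 89.5 and 81.6 CPM. lncRNA:Hsromega, a stress-responsive nuclear RNA, had 332, 241 and 254 CPM and was highest in S1, as the heat-shock genes were. lncRNA:alphagamma-element:CR32865, which lies among the Hsp70 genes, had 72.5, 79.9 and 20.1 CPM.

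Genes of chromosome 4, a small chromosome packed largely as heterochromatin, ranked high. Of its 79 protein-coding genes that could be looked up, 56 were listed, with a median of 341 CPM at the 86.4th percentile, and at the 73.4th per kb of gene span. None (0) stood in the lowest decile, and 22 stood in the top decile. The medians of protein-coding genes on the other arms lay between 74.7 CPM on 2L and 92.7 CPM on X.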
